A study of Mus musculus with 63 samples.

Results

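Neural stem cells (NSC) were compared with basal progenitors (BP) of the developing dorsal cerebral cortex at E13.5, where E stands for embryonic day. The comparison rests on 6 libraries, 3 of NSC and 3 of BP, chosen by their labels from the 63 RNA libraries of the series. The series follows NSC, BP and newborn neurons of Ski knock-out mice day by day through the formation of the cortex. Both E13.5 groups came from C57Bl/6 Ski knock-out embryos whose dorsal cortex was dissociated with papain and sorted by fluorescence. NSC were the GFP-positive cells of Hes5::GFP; Ski KO embryos, and BP those of Tbr2::GFP; Ski KO embryos, where Tbr2 is the protein name of Eomes. Each group is thus defined by 1 reporter transgene, and the labels do not tell how BP were separated from newborn neurons within the Tbr2::GFP cells. All libraries carry the knock-out and none is wild type, so nothing below describes an effect of Ski. The labels give the sex of every library as female and do not say whether replicates came from separate embryos, so p-values measure only a spread between libraries. For p-values and standard errors that spread was estimated per gene within all 19 groups of the series, not from the 6 libraries alone. Levels are length-scaled relative transcript abundances (TPM), and changes are differences of log2(TPM + 1), NSC minus BP, with their standard error. A gene was called where its Benjamini-Hochberg adjusted p from limma was under 0.05 and its log2 change was at least 1 in size.

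In the embryonic cortex, neural stem cells are the radial glia, which span the wall of the brain, divide at the ventricle and either renew themselves or give rise to basal progenitors and neurons. They stay undifferentiated while Notch receptors on their surface are activated by ligands on neighbouring cells. The cleaved receptor joins the DNA-binding protein RBPJ and switches on Hes and Hey repressors, which hold back proneural factors. Basal progenitors turn on Eomes, leave the ventricle and mostly divide to give neurons. Since these are bulk samples, fewer cells of a type and less RNA per cell cannot be told apart in any result below.

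The targeted gene Ski, a co-repressor of TGF-beta signalling on chromosome 4, had 30.6, 35.2 and 33.8 TPM in NSC, against 18.1, 37.4 and 17.2 TPM in BP. The change was 0.53 ± 0.16, adjusted p = 0.0109, short of the size needed for a call, and BP replicate 2 lay above every NSC library while the other BP libraries lay below. The change of Ski was 0.87 without BP replicate 2 (adjusted p = 1.37e-05), and 0.37 and 0.34 without BP replicate 1 or 3 (adjusted p = 0.121 and 0.157). A single value per gene does not show which part of Ski is missing, so this does not check the genotype. Hes5 and Eomes served to sort the cells. Hes5 had 97.4, 167 and 183 TPM in NSC, against 3.01, 2.99 and 3.16 TPM in BP (5.16 ± 0.45, adjusted p = 2.63e-12). Eomes had 416, 345 and 309 TPM in NSC, against 536, 447 and 549.7 TPM in BP (-0.52 ± 0.43, adjusted p = 0.394). The Hes5 levels were far apart and did not overlap, whereas Eomes was lower in every NSC library than in any BP library but not by enough for a call.

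Correlation of log2(TPM + 1) between libraries was 0.986 to 0.992 within NSC, 0.99 to 0.994 within BP and 0.946 to 0.965 across the groups. Transcripts of the mitochondrial genome made up 5.42% to 6.52% of TPM in NSC and 6.86% to 10.9% in BP, with the highest share in BP replicate 1. None of the 13 mitochondrial genes tested was called. The library labels did not match the sex transcripts. Xist had 55.0, 0.161 and 0.272 TPM in NSC and 6.35, 128 and 1.48 TPM in BP, and 4 Y-linked genes summed to 3.56, 88.1 and 102 TPM in NSC and 121, 0.284 and 91.4 TPM in BP. So 1 library in each group had mainly Xist, the other libraries had mainly Y-linked transcripts, and NSC replicate 1 and BP replicate 1 had over 3 TPM of both. The non-coding gene Gm10800 reached 10471 TPM in NSC replicate 3 alone, with 122.3 and 918 TPM in the other two NSC libraries, against 52.4 to 1476 TPM in BP.

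Of 15231 genes tested, 1394 were called (9.15%). Of these, 828 had the higher level in NSC, which is 5.44% of the genes tested, and 566 in BP, which is 3.72%. The median log2 change over all tested genes was -0.001. In 1392 of the 1394 called genes the NSC and BP libraries did not overlap, but the same held for 8326 of all tested genes (54.7%), so groups that do not overlap were common. Without a minimum size, an adjusted p under 0.05 was reached by 2660 genes towards NSC and 2207 towards BP. With a pseudocount of 5 in place of 1, which shrinks the change of low genes, 417 genes were called towards NSC and 261 towards BP.

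**Figure D1:**
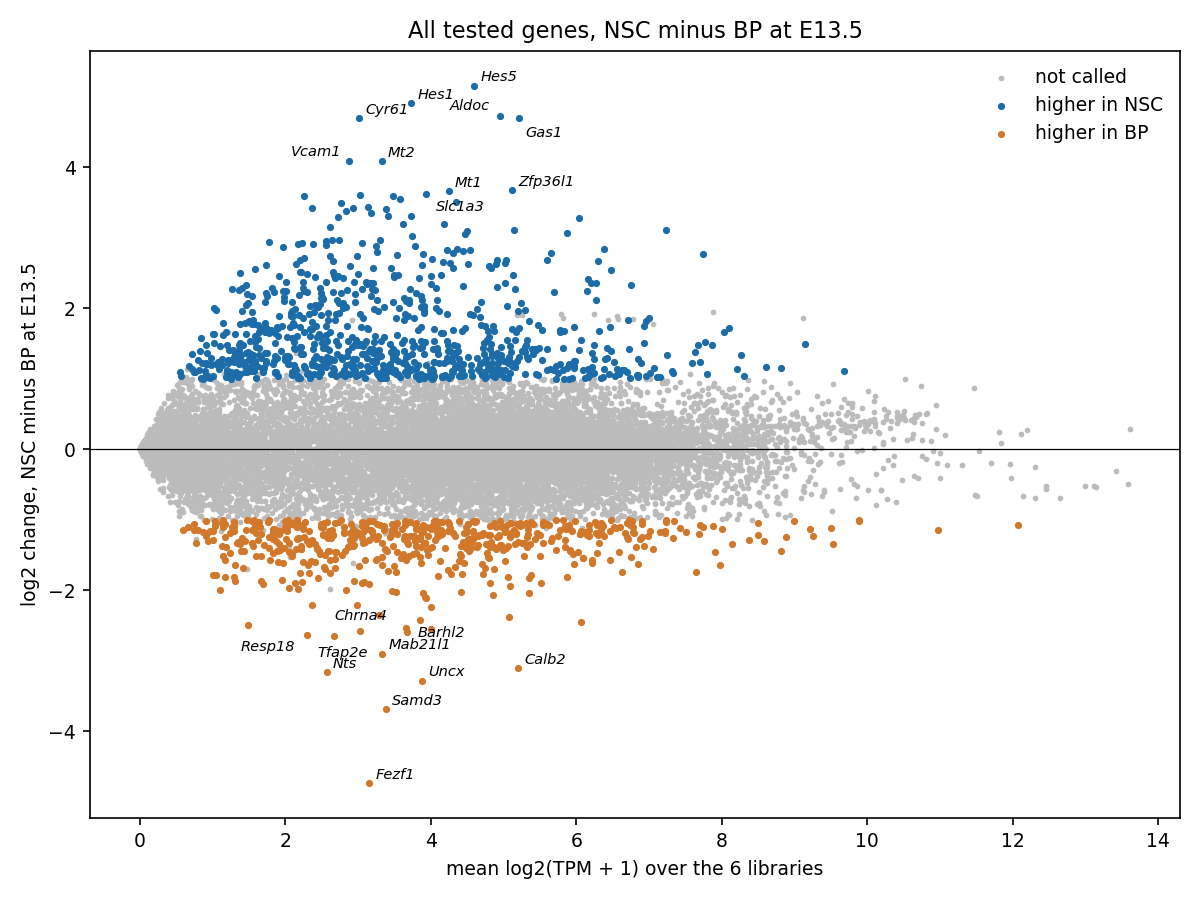
Log2 change, NSC minus BP at E13.5 (vertical axis), against the mean log2(TPM + 1) over the 6 libraries (horizontal axis) for each of 15231 tested genes. Blue points are the 828 genes called higher in NSC, orange points the 566 called higher in BP and grey points those not called, and the 10 largest changes in each direction among genes of at least 10 TPM are named. The NSC side reaches 5.16 (Hes5) and the BP side -4.73 (Fezf1).

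Notch receptors and their effectors were among the genes furthest apart between the groups. Of 14 tested members of this list 8 were higher in NSC and 0 in BP, beside 5.44% and 3.72% of all tested genes. The median log2 change was 2.19 against -0.001 over all tested genes. Hes5, whose reporter was used to sort NSC, is 1 of the 8. Since the pathway switches on Hes genes, the other called members may not be independent of that sort, which was not tested. After Hes5, the repressor Hes1 was next, with 50.2, 76.9 and 95.5 TPM in NSC, against 0.627, 1.85 and 2.02 TPM in BP (4.91 ± 0.53, adjusted p = 6.73e-10). Every NSC library held at least 50.2 TPM of Hes1 and no BP library more than 2.02 TPM. The receptor Notch3 had 28.6, 34.2 and 37 TPM in NSC, against 2.08, 2.15 and 2.38 TPM in BP (3.41 ± 0.25, adjusted p = 4.18e-14). The fringe enzyme Lfng, which adds sugars to Notch receptors and alters their response to ligands, had 43.8, 33.5 and 36.8 TPM in NSC, against 1.14, 2.96 and 2.91 TPM in BP (3.59 ± 0.33, adjusted p = 1.05e-11). In both genes the lowest NSC library lay more than 10-fold above the highest BP library. The other called members were the receptors Notch2 (2.75 ± 0.28) and Notch1 (1.77 ± 0.25), the repressor Hey2 (2.62 ± 0.29) and Nrarp, a target gene whose product dampens the pathway (2.63 ± 0.27). Rbpj itself did not pass, with 101, 110.2 and 92.3 TPM in NSC, against 116, 111 and 109 TPM in BP (-0.15 ± 0.17, adjusted p = 0.579), and its NSC and BP libraries overlapped.

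The promoters of the called Notch genes were searched, on both strands, for TGGGAA, the core of the site that RBPJ is known to bind, since Hes5 and Hey2 are textbook targets of that factor. A promoter from RefSeq on GRCm38.p6, 250 bases before to 50 after the gene's start, was matched for 7 of the 8 called genes. The letters occurred in 3 of the 7, against 25.6% of all 32851 promoters in the table, and did not occur in those of Notch1, Notch2, Notch3 and Nrarp. Each of the 3 is given here in the direction of its gene with the match in capitals, which reads TTCCCA where it lies on the opposite strand. They are Hes5 at chr4:154960673-154960972 (plus strand, matches starting at bases 25 and 169 of the window), Hey2 at chr10:30842734-30843033 (minus strand, bases 44 and 248) and Lfng at chr5:140607091-140607390 (plus strand, bases 116 and 143). All hold 2 matches, 1 on each strand. A match is a description of the sequence and not a measured site.
Hes5: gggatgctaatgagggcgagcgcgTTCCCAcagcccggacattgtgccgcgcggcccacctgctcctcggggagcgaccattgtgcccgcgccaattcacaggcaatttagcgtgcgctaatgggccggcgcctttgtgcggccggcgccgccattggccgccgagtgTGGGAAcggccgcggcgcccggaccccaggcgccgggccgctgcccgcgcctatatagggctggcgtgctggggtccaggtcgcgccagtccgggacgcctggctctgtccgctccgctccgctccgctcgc
Hey2: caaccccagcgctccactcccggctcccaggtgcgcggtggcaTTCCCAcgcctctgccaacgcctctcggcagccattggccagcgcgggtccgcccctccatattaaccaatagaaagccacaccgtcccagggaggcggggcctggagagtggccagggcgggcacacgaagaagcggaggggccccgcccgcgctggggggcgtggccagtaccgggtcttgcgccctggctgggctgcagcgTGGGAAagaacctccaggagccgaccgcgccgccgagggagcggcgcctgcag
Lfng: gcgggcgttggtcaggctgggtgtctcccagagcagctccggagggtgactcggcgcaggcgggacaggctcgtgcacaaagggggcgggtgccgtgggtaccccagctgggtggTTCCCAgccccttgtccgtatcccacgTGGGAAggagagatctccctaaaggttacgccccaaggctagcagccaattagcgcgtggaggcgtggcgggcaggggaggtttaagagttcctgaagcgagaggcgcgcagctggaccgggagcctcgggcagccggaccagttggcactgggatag

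Most ligands and modifiers of the pathway were not called, and those called were higher in BP. Of 14 tested, 0 were higher in NSC and 4 in BP, beside 5.44% and 3.72% of all tested genes, with a median of -0.49. The non-canonical ligand Dlk1 had 4.17, 7.28 and 8.14 TPM in NSC, against 24.1, 35.3 and 33.6 TPM in BP (-2.11 ± 0.74, adjusted p = 0.0247). The neuronal surface protein Dner, another non-canonical ligand, had 46.2, 66.1 and 48.4 TPM in NSC, against 146, 212 and 187 TPM in BP (-1.74 ± 0.39, adjusted p = 0.000473). For both genes all BP libraries lay above all NSC libraries, as for 26.3% of all tested genes. The ligand Jag2 (-1.28 ± 0.28, adjusted p = 0.000352) and the ubiquitin ligase Neurl1a (-1.08 ± 0.28, adjusted p = 0.00249) were also higher in BP. Without BP replicate 2 only 2 of the 14 were called, Dner and Jag2, so both Dlk1 and Neurl1a lost the call. Neurl1a, at 2, 2.36 and 1.84 TPM in NSC, against 4.11, 6.58 and 5.96 TPM in BP, then changed by -0.96 (adjusted p = 0.0210). The main neural ligand Dll1 did not pass in either direction, with 144, 114.7 and 138 TPM in NSC, against 104, 111 and 106 TPM in BP (0.30 ± 0.17, adjusted p = 0.179). Hes6, a Hes family member that promotes differentiation, had 257, 216 and 227 TPM in NSC, against 242, 231 and 261 TPM in BP (-0.07 ± 0.17, adjusted p = 0.819), and its groups overlapped.

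Radial glia genes were higher in NSC in 20 of 24 cases and higher in BP in 0, beside 5.44% and 3.72% of all tested genes. Their median was 2.29. Slc1a3, the glutamate transporter GLAST, had 47.7, 64.3 and 46.4 TPM in NSC, against 3.38, 3.6 and 3.07 TPM in BP (3.61 ± 0.28, adjusted p = 1.31e-13). Ttyh1, a membrane protein of radial glia, had 211, 185.3 and 218 TPM in NSC, against 19.1, 18.2 and 23.5 TPM in BP (3.28 ± 0.25, adjusted p = 4.18e-14). The stem cell factor Sox9 had 51.3, 68.5 and 70.9 TPM in NSC, against 5.1, 7.61 and 7.81 TPM in BP (3.05 ± 0.28, adjusted p = 1.44e-11). In each of these genes the lowest NSC library was at least 6-fold above the highest BP library. The lipid carrier Fabp7 had 678, 751 and 342 TPM in NSC, against 86.2, 85.1 and 71.9 TPM in BP (2.77 ± 0.32), with NSC replicate 3 at the lowest NSC level but still well above BP. Transcription factors of the progenitor state kept clear levels in BP as well. Sox2 had 158, 227 and 213 TPM in NSC, against 31, 31.6 and 27.5 TPM in BP (2.67 ± 0.28, adjusted p = 2.81e-10), and Pax6 had 143, 167 and 173 TPM in NSC, against 49.2, 50.4 and 42.8 TPM in BP (1.74 ± 0.31, adjusted p = 2.27e-05). Vim, which encodes the intermediate filament vimentin, was abundant in both, with 1224, 1179.7 and 1195 TPM in NSC, against 517, 562 and 589 TPM in BP (1.11 ± 0.24, adjusted p = 0.000328). All 9 defining radial glia markers, with the sort gene Hes5 as 1 of them, were called higher in NSC, and their sum was 2484 to 2859 TPM in NSC and 723 to 782 TPM in BP.

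**Figure D2:**
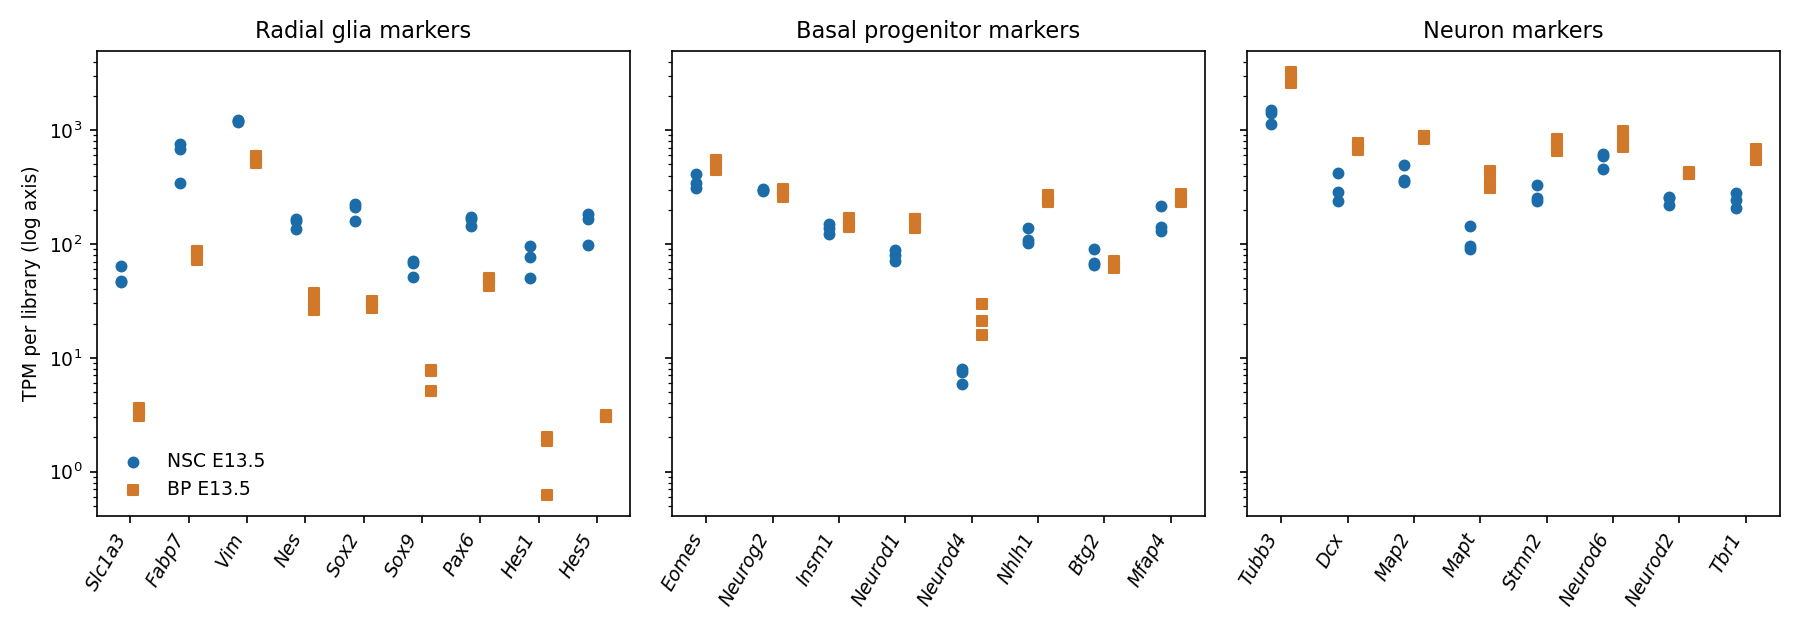
TPM on a log axis in each of the 3 NSC libraries (blue circles) and 3 BP libraries (orange squares) at E13.5 for markers of radial glia (left), basal progenitors (middle) and neurons (right), 1 point per library. NSC points lie above BP points for all 9 radial glia markers and below them for all 8 neuron markers, while 6 of the 8 basal progenitor markers were not called.

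Of 20 tested genes of the basal progenitor programme, 0 were higher in NSC, 3 were higher in BP and 17 were not called, with a median of -0.39, beside 3.72% of all tested genes called higher in BP. The 3 were Ppp1r17, a phosphatase regulator, with 1.58, 3.45 and 2.23 TPM in NSC, against 9.04, 11.8 and 10.1 TPM in BP (-1.75 ± 0.31, adjusted p = 2.75e-05), the proneural factor Neurod4, with 7.96, 7.53 and 5.82 TPM in NSC, against 29.8, 16 and 21.1 TPM in BP (-1.49 ± 0.36, adjusted p = 0.00132), and the helix-loop-helix factor Nhlh1, with 137, 109 and 102 TPM in NSC, against 235, 247 and 272 TPM in BP (-1.12 ± 0.35, adjusted p = 0.0121). NSC and BP libraries did not overlap for any of the 3, as for 54.7% of all tested genes. Nhlh1 was not called without NSC replicate 3 (-1.03, adjusted p = 0.0534). The proneural factor Neurog2, which starts neuronal differentiation, was at 295 to 302 TPM in NSC and 258 to 302 TPM in BP (0.08 ± 0.30, adjusted p = 0.892). Insm1, a zinc finger factor needed for basal progenitors to form, had 138, 149 and 123 TPM in NSC, against 168, 151 and 142 TPM in BP (-0.17 ± 0.20, adjusted p = 0.592), and its groups overlapped too. A p that misses the threshold does not show equal levels, but the standard errors of Neurog2 and Insm1 were 0.30 and 0.20 on the log2 scale. So the sort marked as stem cells held transcripts of Eomes, Neurog2 and Insm1 at 123 TPM or more in every library. Defining basal progenitor markers summed to 1103 to 1395 TPM in NSC and 1579 to 1779 TPM in BP, and 2 of the 8 were called.

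Among promoters of these 3 genes, 2 were matched, and the letters CAGATG, an E-box of the kind that neurogenin and NeuroD factors are known to bind, occurred in that of Nhlh1 and not in that of Neurod4. Of all 32851 promoters 17.2% hold CAGATG or its reverse CATCTG. The Nhlh1 window, at chr1:172057547-172057846 on the minus strand of GRCm38.p6, is shown because it holds the letters. Nhlh1 was also called higher in BP on each other day except E14.5, when its change was -0.87. The single match in the window starts at base 48 and is in capitals.
Nhlh1: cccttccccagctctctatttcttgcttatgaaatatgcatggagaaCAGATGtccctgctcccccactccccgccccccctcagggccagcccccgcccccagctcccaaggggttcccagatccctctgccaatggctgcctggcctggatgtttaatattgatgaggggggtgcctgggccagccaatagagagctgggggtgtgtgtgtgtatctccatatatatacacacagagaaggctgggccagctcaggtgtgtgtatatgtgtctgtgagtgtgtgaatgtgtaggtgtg

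Genes of neuronal differentiation were higher in BP. Of 26 tested, 15 were higher in BP, 0 were higher in NSC and 11 were not called, with a median of -1.07. The share called higher in BP among all tested genes was 3.72%. Rbfox3, the neuronal splicing factor NeuN, had 81.3, 79.1 and 62.2 TPM in NSC, against 147, 144 and 155.4 TPM in BP (-1.004 ± 0.19, adjusted p = 7.77e-05). The tubulin gene Tubb3 had 1429, 1508 and 1131 TPM in NSC, against 2584, 3258 and 3135 TPM in BP (-1.15 ± 0.26, adjusted p = 0.000513). Crmp1, a growth cone protein, had 503, 569.6 and 413 TPM in NSC, against 932, 1144 and 1126 TPM in BP (-1.11 ± 0.25, adjusted p = 0.000547). NSC replicate 3 was the lowest library for all 3, and no library of NSC reached BP. The largest change of the list was in Mapt, which encodes tau and averaged 111 ± 29.6 TPM in NSC and 368 ± 62.6 TPM in BP (SD, n = 3 each; -1.74 ± 0.45, adjusted p = 0.00212). Without NSC replicate 3 the list had 9 called genes in place of 15, with Rbfox3 (-0.88) and Crmp1 (-0.99) just short of the required size. Rbfox3 also fell short without BP replicate 3 (-0.97). All 26 genes had separate NSC and BP ranges, beside 54.7% of all tested genes. The mean log2(TPM + 1) of the list was 7.49 ± 0.20 in NSC and 8.53 ± 0.03 in BP at E13.5 (SD, n = 3 each), beside 8.74 ± 0.07 in newborn neurons at E15.5, their first day (n = 3). Defining neuron markers summed to 2941 to 4018 TPM in NSC and 7202 to 7831 TPM in BP, and the part of neurons in the BP differences was not tested.

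Synapse and excitability genes were higher in BP in 14 of 26 cases and higher in NSC in 0, with a median of -1.18. The sodium channel gene Scn3a had 7.61, 12.3 and 9.31 TPM in NSC, against 45.5, 41 and 40.1 TPM in BP (-2.03 ± 0.46, adjusted p = 0.000609). All BP libraries exceeded all NSC libraries for this gene, as for 26.3% of all tested genes. In the migration and guidance list 6 of 28 were higher in BP and 0 higher in NSC (median -0.65). Both lists stand beside 3.72% of all tested genes called higher in BP and 5.44% in NSC. The semaphorin receptor gene Nrp2 had 38.7, 29.2 and 24.2 TPM in NSC, against 85.1, 135.4 and 111 TPM in BP (-1.82 ± 0.35, adjusted p = 7.73e-05), and the netrin receptor gene Dcc changed by -1.63 ± 0.39, adjusted p = 0.00119. Slit1, a repellent ligand, was called at -1.01, but fell short of that size without any 1 of NSC replicate 1 or 3 or BP replicate 2 or 3.

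Layer neuron genes moved less. Of 14 deep-layer genes only Tbr1, a factor of early-born neurons that follows Eomes in the lineage, was called, with 246, 281 and 209 TPM in NSC, against 585, 677 and 543 TPM in BP (-1.30 ± 0.40, adjusted p = 0.00937). Of 14 upper-layer genes none was called in either direction, although 3 were called higher in BP when only the 6 libraries were fitted. Among all tested genes 3.72% were called higher in BP. Neurod6, a factor of young excitatory neurons, had 620.1, 589 and 459.8 TPM in NSC, against 983, 706 and 801 TPM in BP (-0.57 ± 0.56, adjusted p = 0.482). Its lowest BP library lay above its highest NSC library, as for 26.3% of all tested genes.

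Cajal-Retzius cells are the earliest cortical neurons and lie at the brain surface. Of 13 genes of these cells 10 were higher in BP and 0 higher in NSC, beside 3.72% and 5.44% of all tested genes. Their median was -1.59, below that of the neuronal list. Calb2, which encodes calretinin, had 12.4, 14.4 and 8.42 TPM in NSC, against 86.8, 123 and 113 TPM in BP (-3.10 ± 0.48, adjusted p = 1.62e-06). The homeobox gene Barhl2 had 3.53, 4.92 and 4.25 TPM in NSC, against 24.1, 40.6 and 28.9 TPM in BP (-2.60 ± 0.49, adjusted p = 5.13e-05). Another homeobox gene, Lhx5, had 7.14, 6.26 and 5.72 TPM in NSC, against 24.2, 41.8 and 37.5 TPM in BP (-2.24 ± 0.45, adjusted p = 0.000122). BP replicate 1 was the lowest BP library for all 3, and its values still stood well above NSC. Trp73, the p53 relative used to identify these cells, had 27.4, 25 and 22.9 TPM in NSC, against 49.7, 65.3 and 69.6 TPM in BP (-1.25 ± 0.43, adjusted p = 0.02), and was not called without BP replicate 2 or 3 or NSC replicate 3 (adjusted p between 0.0616 and 0.0679). The mean log2(TPM + 1) of the list was 3.54 ± 0.08 in NSC and 5.17 ± 0.21 in BP at E13.5 (SD, n = 3 each). In BP it had been 5.67 ± 0.01 at E12.5 (n = 2) and was 3.84 ± 0.33 at E14.5 (n = 6).

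The single largest BP excess of any gene was in Fezf1, a zinc finger repressor of the early forebrain (chr6:23245044-23248362, GENCODE vM21 on GRCm38), with 0.361, 1.19 and 0.711 TPM in NSC, against 26.7, 64.3 and 52.2 TPM in BP (-4.73 ± 0.57, adjusted p = 8.04e-09). Samd3 followed, with 0.928, 2.6 and 2.54 TPM in NSC, against 29.7, 46.1 and 35.5 TPM in BP (-3.69 ± 0.57, adjusted p = 1.63e-06), and then the homeobox gene Uncx, with 4.4, 3.08 and 3.75 TPM in NSC, against 32.3, 56.1 and 49.7 TPM in BP (-3.28 ± 0.73, adjusted p = 0.000492). BP replicate 2 was the highest library for each of these 3 genes and BP replicate 1 the lowest of BP. The rest of the 10 were Nts, the neuropeptide neurotensin (-3.16 ± 0.89), Calb2, Mab21l1 (-2.90 ± 0.69), the AP-2 family factor Tfap2e (-2.65 ± 0.70), Resp18, found in neuroendocrine cells (-2.63 ± 0.55), Barhl2 and the nicotinic receptor subunit Chrna4 (-2.58 ± 0.54). Nts was listed at 0 TPM in NSC replicate 3 and at 1.77 and 1.81 TPM in the other two NSC libraries, against 14.47, 25.4 and 12.7 TPM in BP.

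On the NSC side the 10 largest changes were, after Hes5 and Hes1, in Aldoc, the glycolytic aldolase of glial cells (4.72 ± 0.65), Cyr61, a secreted matrix protein (4.70 ± 0.54), Gas1, a surface co-receptor for hedgehog ligands (4.69 ± 0.41), the adhesion molecule Vcam1 (4.09 ± 0.28), the metallothioneins Mt2 (4.08 ± 0.57) and Mt1 (3.66 ± 0.55), Zfp36l1, an RNA-binding protein that speeds mRNA decay (3.67 ± 0.34), and Slc1a3. Vcam1 had 35.3, 26.6 and 26.9 TPM in NSC, against 0.451, 1.15 and 0.79 TPM in BP (adjusted p = 5.76e-15, the smallest of the 10). Gas1 had 170.0, 175.5 and 219.8 TPM in NSC, against 5.54, 7.72 and 5.73 TPM in BP (adjusted p = 2.63e-12). Zfp36l1 had 104, 126 and 139.7 TPM in NSC, against 7.44, 10 and 8.77 TPM in BP (adjusted p = 1.16e-11). No NSC library overlapped with BP in these 3 genes, and the groups did not overlap in 54.7% of all tested genes. Mt1 and Mt2 are similar in sequence, so how reads were divided between them is uncertain. Vcam1 and Cyr61 are also expressed by endothelium, whose 4 defining markers summed to 0.936 to 1.31 TPM in NSC and 3.97 to 6.72 TPM in BP. The part of endothelium in these changes was not tested.

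Many cell cycle genes were higher in NSC. Of 23 S phase genes, 17 were called higher in NSC and 0 in BP, beside 5.44% and 3.72% of all tested genes. Their median was 1.38. For all 23 the groups did not overlap, beside 54.7% of all tested genes. The helicase subunit Mcm3, part of the complex that opens DNA at replication origins, had 157, 162 and 175.1 TPM in NSC, against 30.8, 27.5 and 31.9 TPM in BP (2.41 ± 0.29, adjusted p = 8.76e-09). The histone chaperone subunit Chaf1b had 64.2, 63.9 and 74.9 TPM in NSC, against 27.2, 19.9 and 20.5 TPM in BP (1.56 ± 0.20, adjusted p = 2.35e-08). Pcna, the sliding clamp of DNA polymerase, had 361, 362 and 387 TPM in NSC, against 134, 118 and 133 TPM in BP (1.52 ± 0.20, adjusted p = 8.7e-08). Replicates of each group lay close together in these genes, and every NSC level was more than 2-fold above every BP level. In the G2 and M list 5 of 23 were higher in NSC and 0 in BP, with a median of 0.86. The cyclin gene Ccnb2 had 105.2, 104 and 106 TPM in NSC, against 49.2, 44.4 and 48.2 TPM in BP (1.14 ± 0.24, adjusted p = 0.00024) and the kinase gene Aurkb had 78.1, 101 and 102 TPM in NSC, against 43.2, 38 and 40.1 TPM in BP (1.18 ± 0.28, adjusted p = 0.00105). The count was 9 without NSC replicate 1, 8 without BP replicate 1 and 10 without both, and BP replicate 1 had the highest G2 and M sum in BP (1584 TPM, against 1196 and 1384 TPM in the other two). Mki67, the proliferation antigen Ki-67, had 58.6, 95.8 and 109 TPM in NSC, against 93.8, 31.5 and 52.7 TPM in BP (0.65 ± 0.58, adjusted p = 0.44), with overlapping groups.

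Among cyclins and inhibitors of G1, 6 of 14 were higher in NSC and 1 in BP, beside 5.44% and 3.72% of all tested genes. Their median was 0.60. The cyclin gene Ccnd3 had 69.6, 56.9 and 68.5 TPM in NSC, against 19.8, 24.2 and 24.3 TPM in BP (1.47 ± 0.17, adjusted p = 2.73e-09), the kinase gene Cdk2 had 61.5, 58.2 and 64.7 TPM in NSC, against 18.4, 17.495 and 18.3 TPM in BP (1.71 ± 0.23, adjusted p = 1.01e-07) and the cyclin gene Ccnd2 had 319, 369 and 338 TPM in NSC, against 111, 133 and 122 TPM in BP (1.48 ± 0.28, adjusted p = 7.25e-05). All 3 were at least 2-fold apart between the nearest libraries. Cdkn1a, which encodes the cycle inhibitor p21, went the other way, with 29.96, 21.3 and 20.05 TPM in NSC, against 43.3, 71.5 and 71.2 TPM in BP (-1.33 ± 0.36, adjusted p = 0.00321). Ccnd1 changed by 0.87 ± 0.25, adjusted p = 0.00626 and was not called, but was called without NSC replicate 1 (1.02). Cdkn1c, another inhibitor of the cycle, had 205, 133 and 117 TPM in NSC, against 192, 205 and 227 TPM in BP (-0.49 ± 0.30, adjusted p = 0.221), with NSC replicate 1 inside the BP range.

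In the Wnt list 17 of 30 genes were called higher in NSC and 0 in BP, beside 5.44% and 3.72% of all tested genes. Their median was 1.09. The receptor gene Fzd9 had 43.3, 29.9 and 36 TPM in NSC, against 2.47, 3.23 and 3.45 TPM in BP (3.20 ± 0.31, adjusted p = 4.36e-11). Fzd7, a related receptor gene, had 15.4, 14.1 and 15 TPM in NSC, against 3.82, 3.8 and 3.81 TPM in BP (1.72 ± 0.17, adjusted p = 1.38e-10). The repressing transcription factor Tcf7l1 had 46.2, 51.3 and 55 TPM in NSC, against 5.31, 7.08 and 7.42 TPM in BP (2.78 ± 0.30). Axin2, a general target of the pathway, had 34.8, 38.9 and 40.04 TPM in NSC, against 15.6, 15 and 14.2 TPM in BP (1.29 ± 0.14, adjusted p = 8.88e-10). NSC and BP did not overlap for any of these 4 genes, as for 54.7% of all tested genes. Among ligands, Wnt7a (1.54 ± 0.21), Wnt8b (2.08 ± 0.32), Wnt3a (1.20 ± 0.24) and Wnt2b (1.03 ± 0.25) were higher in NSC, the last 2 from levels of at most 3.44 TPM. Wnt2b fell short of the required size without BP replicate 1 (0.97) or NSC replicate 1 (0.84). With a pseudocount of 5, 10 of the 30 were called.

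In the FGF list 6 of 19 were higher in NSC and 2 in BP (median 0.49), beside 5.44% and 3.72% of all tested genes. The receptor Fgfr2 had 50.1, 61.2 and 59.8 TPM in NSC, against 7.55, 7.54 and 6.61 TPM in BP (2.81 ± 0.23, adjusted p = 3.02e-13), Fgfr3 had 124.6, 100.1 and 109 TPM in NSC, against 24.2, 22.6 and 21.8 TPM in BP (2.23 ± 0.24, adjusted p = 5.93e-10) and the growth factor Ptn had 144, 178 and 179 TPM in NSC, against 32.7, 30.6 and 31.5 TPM in BP (2.36 ± 0.25, adjusted p = 2.93e-10). The 2 genes higher in BP were the ligand Fgf9, with 0.676, 0.777 and 0.449 TPM in NSC, against 3.18, 4.13 and 2.31 TPM in BP (-1.35 ± 0.25, adjusted p = 6.14e-05), and the ETS factor Etv1, with 11.2, 34.3 and 12.2 TPM in NSC, against 63.6, 61.1 and 60.9 TPM in BP (-1.82 ± 0.60, adjusted p = 0.0172). NSC replicate 2 was about 3-fold above the other NSC libraries for Etv1, and the call was lost without NSC replicate 1 or without NSC replicate 3.

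The Hippo list, whose effectors Yap1 and Wwtr1 (TAZ) work with TEAD factors, had 7 of 17 higher in NSC and 0 higher in BP (median 0.52). Shares over all tested genes were 5.44% and 3.72%. Yap1 had 64.5, 66.8 and 71.4 TPM in NSC, against 4.33, 5.36 and 5.56 TPM in BP (3.50 ± 0.30, adjusted p = 1.15e-12). Ajuba, a scaffold protein that restrains the pathway's kinases, had 37.8, 34.2 and 40.3 TPM in NSC, against 3.02, 4.01 and 4.11 TPM in BP (3.03 ± 0.26, adjusted p = 1.3e-12). Their levels were at least 8-fold apart between the nearest libraries. The targets Cyr61 (4.70 ± 0.54, adjusted p = 2.93e-09) and Ctgf (1.79 ± 0.36, adjusted p = 0.000164) were higher as well, Ctgf from at most 4.31 TPM.

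Ski acts in TGF-beta signalling, and of genes of the TGF-beta and BMP pathways 7 of 27 were higher in NSC and 0 in BP, with a median of 0.21. Smad3, which carries the TGF-beta signal to the nucleus, had 41.2, 40.7 and 39.7 TPM in NSC, against 4.91, 8.01 and 6.81 TPM in BP (2.48 ± 0.20, adjusted p = 3.02e-13). Id4, a helix-loop-helix protein that blocks proneural factors, had 424, 402 and 507 TPM in NSC, against 41.7, 55.4 and 55.5 TPM in BP (3.11 ± 0.32, adjusted p = 2.17e-10). Smad6, an inhibitor of BMP signalling, had 7.19, 5.76 and 6.77 TPM in NSC, against 1.29, 1.65 and 1.64 TPM in BP (1.58 ± 0.23, adjusted p = 6.38e-07). No NSC library of these genes came near BP. The others were Id3 (2.04 ± 0.48), the ligand Tgfb2 (1.43 ± 0.32), the receptor Bmpr1b (1.25 ± 0.36) and Id1 (1.03 ± 0.31). Id1 fell short of the required size without BP replicate 1 (0.91) or BP replicate 3 (0.965), and Bmpr1b was not called without BP replicate 2 (0.92, adjusted p = 0.0782). Smad2 (-0.10 ± 0.11), Smad4 (0.06 ± 0.12) and the Ski relative Skil (-0.39 ± 0.31) were not called. Of 20 genes for partners of the Ski protein 2 were higher in NSC, Smad3 and Gli3 (2.28 ± 0.35, adjusted p = 2.28e-06). Over all tested genes 5.44% were called higher in NSC, and the Ski partner list had a median of 0.18. With a pseudocount of 5 the TGF-beta and BMP count was 3.

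**Figure D3:**
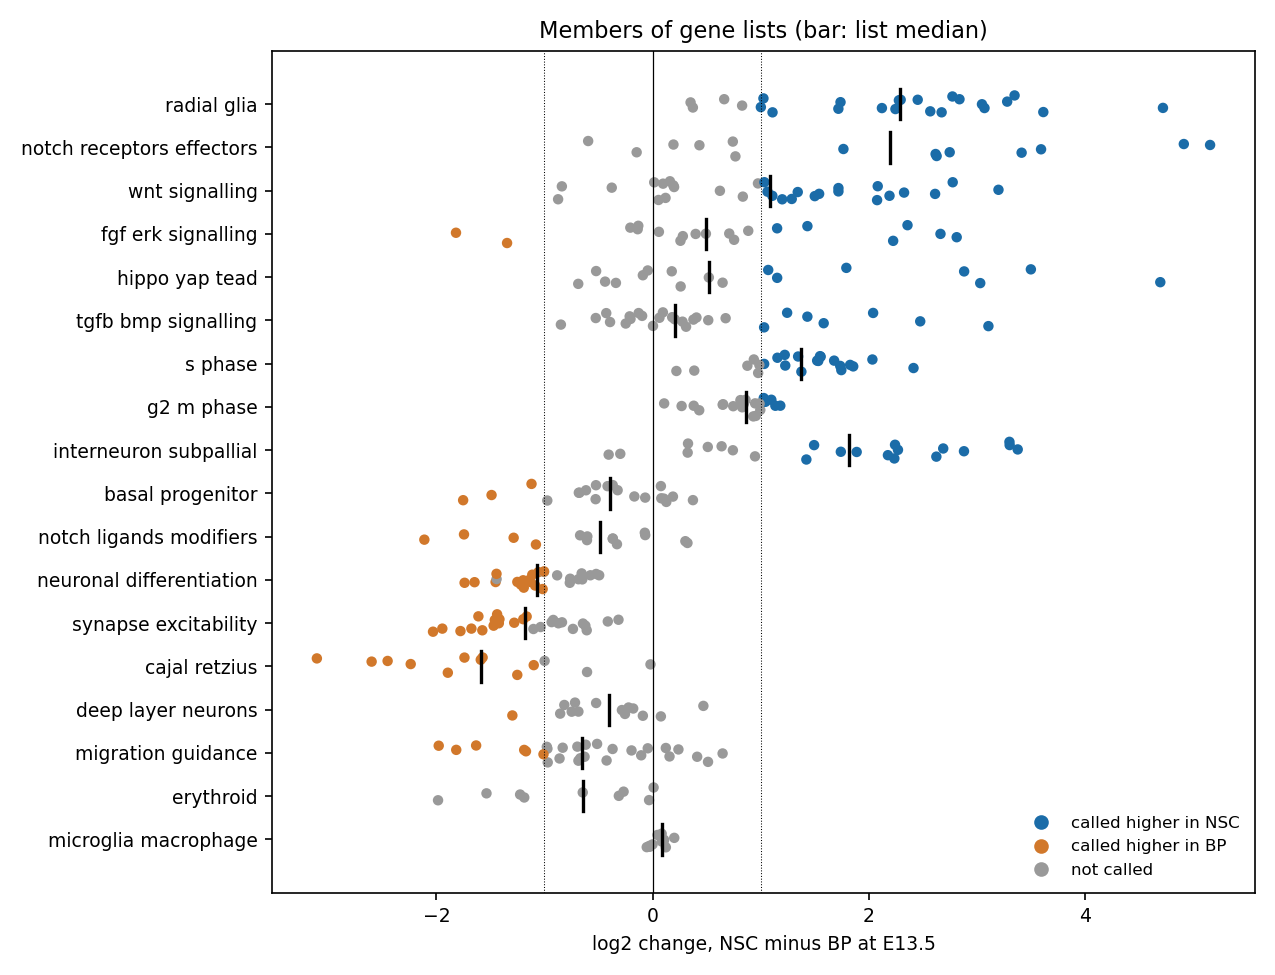
Log2 change, NSC minus BP at E13.5 (horizontal axis), of each tested member of 18 gene lists (rows). Blue points were called higher in NSC, orange points higher in BP and grey points not called, black bars are list medians, dotted lines mark the size needed for a call and vertical scatter within a row has no meaning. Radial glia and Notch receptor lists have medians of 2.29 and 2.19, and the Cajal-Retzius list has the lowest, at -1.59.

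Most genes of the extracellular matrix and of cell junctions were not called, and those called were mostly higher in NSC. In the matrix and integrin list 10 of 27 were higher in NSC and 1 in BP (median 0.73). The laminin gene Lama1 had 4.68, 5.86 and 6.06 TPM in NSC, against 0.821, 1.19 and 1.42 TPM in BP (1.61 ± 0.18, adjusted p = 9.34e-10), Lamb2 changed by 2.36 ± 0.28 and the collagen gene Col4a5 by 2.28 ± 0.26. The gene higher in BP was Vcan, a large proteoglycan, with 46.9, 79.3 and 77.9 TPM in NSC, against 186, 134.8 and 159.9 TPM in BP (-1.25 ± 0.48, adjusted p = 0.0409), whose call was lost without any single library except NSC replicate 2. In the junction and polarity list 4 of 24 were higher in NSC and 1 in BP (median 0.24). Both lists stand beside 5.44% of all tested genes called higher in NSC and 3.72% in BP. The apical polarity gene Crb2 had 24.3, 19.1 and 22.7 TPM in NSC, against 1.77, 2.13 and 2.18 TPM in BP (2.92 ± 0.24, adjusted p = 5.66e-13), and Plekha7, of adherens junctions, had 15.9, 20.7 and 19.8 TPM in NSC, against 2.84, 2.52 and 3.01 TPM in BP (2.38 ± 0.26, adjusted p = 7.45e-10). The catenins moved in opposite directions, with Ctnna1 at 1.07 ± 0.18 and the neuronal Ctnna2 at -1.23 ± 0.20.

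Some glial genes differed at this age. In the astrocyte list 6 of 19 were higher in NSC and 1 in BP (median 0.43). Mlc1, a membrane protein of astrocytes, had 14.9, 16.48 and 15.3 TPM in NSC, against 0.275, 0.507 and 0.329 TPM in BP (3.60 ± 0.30, adjusted p = 5.84e-13). Slc1a2, the glutamate transporter GLT-1, was instead higher in BP, with 11.4, 16.4 and 12.1 TPM in NSC, against 51.7, 64.3 and 60.01 TPM in BP (-2.07 ± 0.43, adjusted p = 0.000223). The glutamate transporter genes Slc1a2 and Slc1a3 thus had opposite directions. In the oligodendrocyte list 1 of 13 was called, Sox8 (2.69 ± 0.30, adjusted p = 1.12e-09), and 3 were called without NSC replicate 1. In the cilia list 2 of 13 were higher in NSC, the factors Rfx4 (2.96 ± 0.23, adjusted p = 1.94e-13) and Rfx2 (1.23 ± 0.19, adjusted p = 1.92e-06). These counts stand beside 5.44% of all tested genes called higher in NSC and 3.72% in BP.

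Genes of early progenitor age included 3 of 15 higher in NSC and 1 higher in BP (median 0.31). Hmga2, a chromatin protein of young stem cells, had 33.3, 54.9 and 63.1 TPM in NSC, against 5.68, 5.53 and 6.86 TPM in BP (2.83 ± 0.37, adjusted p = 5.6e-08). Sox1 had 48, 63.4 and 57 TPM in NSC, against 7.33, 9.65 and 7.74 TPM in BP (2.63 ± 0.23, adjusted p = 1.33e-12) and the zinc finger gene Prdm16 had 14.4, 20.9 and 18.2 TPM in NSC, against 3.78, 3.73 and 3.54 TPM in BP (1.99 ± 0.39, adjusted p = 9.83e-05). No NSC library came near BP in these genes. Lin28b, which blocks let-7 microRNAs, was higher in BP at -1.08 ± 0.33, adjusted p = 0.0107, a call that was lost without NSC replicate 1. In the patterning list 4 of 20 were higher in NSC and 3 in BP (median 0.30). The 3 were Fezf1, Nr2f2, with 24.9, 33.5 and 24.9 TPM in NSC, against 119, 198 and 158 TPM in BP (-2.45 ± 0.77, adjusted p = 0.0111), and Lhx9, with 39, 40.8 and 45.1 TPM in NSC, against 125.5, 129.8 and 133 TPM in BP (-1.62 ± 0.44, adjusted p = 0.00388). Among transcription factors linked to delamination, Plagl1 (1.39 ± 0.39, adjusted p = 0.00502) was higher in NSC and Scrt1 (-1.19 ± 0.34, adjusted p = 0.00605) higher in BP, of 10 tested. All tested genes were called at 5.44% towards NSC and 3.72% towards BP.

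Genes of GABAergic interneurons and the subpallium, tissue below the dorsal cortex, were higher in NSC in 14 of 22 cases and higher in BP in 0. Their median was 1.82, and shares over all tested genes were 5.44% and 3.72%. The largest change was in Dlx5, a homeobox factor of these cells, with 9, 57.1 and 19.6 TPM in NSC, against 0.667, 1.75 and 1.33 TPM in BP (3.38 ± 0.53, adjusted p = 2.66e-06). Dlx2 had 17.4, 103 and 36.3 TPM in NSC, against 2.42, 4.09 and 3.29 TPM in BP (3.30 ± 0.59, adjusted p = 2.27e-05), and Gad1, the enzyme that makes GABA, had 4.2, 22.4 and 8.85 TPM in NSC, against 1.1, 1.65 and 1.06 TPM in BP (2.24 ± 0.61, adjusted p = 0.00348). NSC replicate 2 was the highest library and NSC replicate 1 the lowest of NSC for all 3, with Dlx5 about 6-fold apart between them, and Gad1 was not called without NSC replicate 2 (1.67, adjusted p = 0.0510). The spread within NSC was smaller for the zinc finger factor Sp8, with 14.8, 24.3 and 18.9 TPM in NSC, against 2.57, 4.03 and 2.95 TPM in BP (2.27 ± 0.33, adjusted p = 5.55e-07). The 6 defining markers summed to 51.3 to 296 TPM in NSC and 8.35 to 14.03 TPM in BP. The part of such cells in the other NSC differences was not tested.

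Markers of other cell types were low. Microglia markers summed to 2.12 to 3.40 TPM in NSC and 2.10 to 2.72 TPM in BP, and mesenchyme markers to 3.99 to 6.05 TPM in NSC and 1.52 to 8.43 TPM in BP. Erythroid markers summed to 10.02 to 67.8 TPM in NSC and 23.3 to 61.6 TPM in BP, and choroid plexus markers to 3.55 to 46.7 TPM in NSC and 7.93 to 18.6 TPM in BP. None of these markers was called, although 4 genes of the erythroid list of 9 were called higher in BP with libraries weighted by their spread and 2 in a fit of the 6 libraries alone, and of the endothelial markers only Cldn5 was, from at most 1.77 TPM and not without any 1 library (adjusted p between 0.0826 and 0.1001). Of 19 immediate early genes, which can be induced by dissociation, 1 was called, Jun, with 137, 161 and 184 TPM in NSC, against 31.8, 44.5 and 33.2 TPM in BP (2.11 ± 0.39, adjusted p = 4.61e-05), and in a fit of the 6 libraries alone 5 were. Of 20 glycolysis and hypoxia genes 2 were higher in NSC, Hk2 (1.73 ± 0.26, adjusted p = 1.09e-06) and Ldha (1.498 ± 0.30, adjusted p = 0.000152), and without BP replicate 3 the count was 6. The share called higher in NSC among all tested genes was 5.44%.

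The E13.5 difference was then set against the same difference on the other days that have both cell types. NSC and BP libraries per day number 4 and 2 at E12.5, 4 and 6 at E14.5, 3 and 3 at E15.5, E16.5 and E18.5, and 3 and 4 at E17.5, so the days differ in how many changes they can call. Genes called higher in NSC numbered 879 at E12.5 (5.77%), 828 at E13.5, 501 at E14.5 (3.29%), 448 at E15.5 (2.94%), 246 at E16.5 (1.62%), 523 at E17.5 (3.43%) and 1149 at E18.5 (7.54%). Genes called higher in BP numbered 447 at E12.5 (2.93%), 566 at E13.5, 54 at E14.5 (0.355%), 39 at E15.5 (0.256%), 58 at E16.5 (0.381%) and 144 at E18.5 (0.945%), and at E17.5 they made up 0.821%. The BP side was thus long at E12.5 and E13.5 and short from E14.5 on.

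The genes called at E13.5 were followed on the other days. Of the 828, 72.5% were also called at E12.5, 50.5% at E14.5, 9.9% at E16.5 and 55.4% at E18.5, and the shared genes made up 68.3%, 83.4%, 33.3% and 39.9% of those days' own NSC lists. Of the 566, 35.9% were also called at E12.5 and between 1.77% and 7.07% on each later day. These shared genes made up 45.4% of the E12.5 list and between 17.2% and 74.1% of the later ones. Of both sets together, 1 gene was called in the opposite direction at E12.5 and 0 at E14.5. Such opposite calls numbered 23 at E15.5, 22 at E16.5, 85 at E17.5 and 25 at E18.5. The median log2 change of the 828 genes was 1.28 at E12.5, 1.01 at E14.5, 0.20 at E16.5, 0.15 at E17.5 and 1.11 at E18.5. For the 566 genes it was -0.87 at E12.5, -0.62 at E14.5, 0.04 at E15.5, 0.15 at E16.5, 0.27 at E17.5 and -0.28 at E18.5. On all 6 other days, 442 of the 828 (53.4%) and 122 of the 566 (21.6%) had the same sign as at E13.5. The mean log2(TPM + 1) of the neuronal differentiation list moved over the same days, at 7.84 ± 0.44 in NSC (n = 4) and 8.43 ± 0.22 in BP (n = 6) at E14.5 and 8.40 ± 0.21 in NSC and 8.08 ± 0.23 in BP at E16.5 (SD, n = 3 each), and its part in these medians was not tested.

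**Figure D4:**
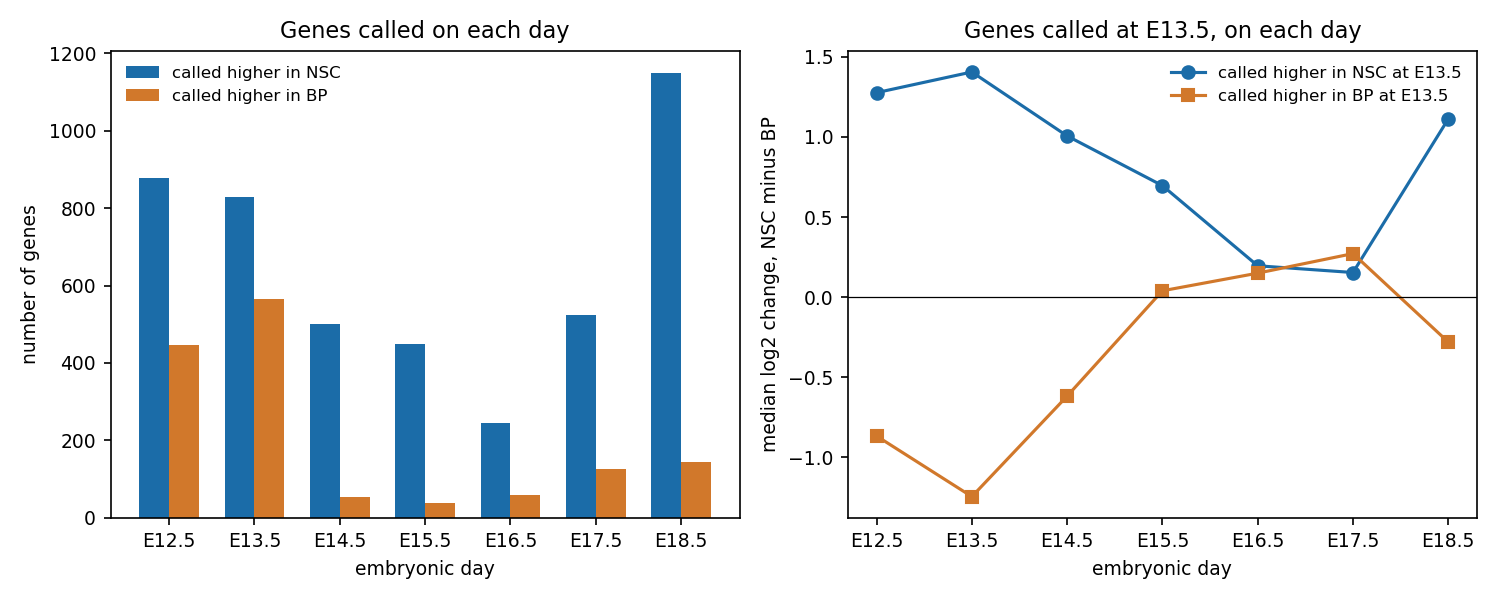
Left, number of genes called higher in NSC (blue bars) and in BP (orange bars) on each embryonic day. Right, median log2 change, NSC minus BP, on each day of the genes called at E13.5 as higher in NSC (blue circles) or BP (orange squares). The E13.5 points, at 1.41 and -1.24, are those the genes were chosen on, and both medians lie between 0.15 and 0.27 at E16.5 and E17.5.

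A test of the difference between E13.5 and the mean of the 6 other days called 180 genes as shifted towards NSC, which is 1.18% of tested genes, and 465 as shifted towards BP, which is 3.05%. Of the 180, 172 were also higher in NSC at E13.5. Of the 465, 288 were also higher in BP at E13.5, 1 was higher in NSC and 176 were not called on that day. The 465 depended on single libraries, with 257 called without BP replicate 2 and 305 without NSC replicate 3, and with a pseudocount of 5 the counts were 74 towards NSC and 195 towards BP. Against the mean of the neighbouring days E12.5 and E14.5 alone, limma called 0 genes in either direction. In that contrast 983 genes (6.45% of those tested) had an unadjusted p under 0.05, and the smallest adjusted p was 0.374. With libraries weighted by their spread, 121 genes towards NSC and 255 towards BP were called in that contrast.

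The largest shift towards BP was in Fezf1, at -4.00 ± 0.61, adjusted p = 4.37e-05. Its level in NSC was 23.2 ± 19.97 TPM at E12.5 (SD, n = 4), 0.754 ± 0.417 TPM at E13.5 (n = 3) and 0.248 ± 0.231 TPM at E14.5 (n = 4). In BP it was 79.3 ± 7.43 TPM at E12.5 (n = 2), 47.8 ± 19.2 TPM at E13.5 (n = 3) and 3.62 ± 4.93 TPM at E14.5 (n = 6). Levels were thus low from E13.5 in NSC. In BP at E14.5, replicates 5 and 6 still held 11.8 and 7.63 TPM, and the other libraries at most 1.31 TPM. The others were the membrane protein gene Tmem130 (-2.90 ± 0.62, adjusted p = 0.00189), Dlk1 (-2.87 ± 0.80, adjusted p = 0.0129), Fam19a2, which encodes a secreted neuronal protein (-2.85 ± 0.52, adjusted p = 0.000371), and Mef2c (-2.78 ± 0.56, adjusted p = 0.00113). Dlk1 in NSC was 183 ± 167 TPM at E12.5, with libraries between 14.4 and 389.6 TPM (n = 4), and 6.54 ± 2.09 TPM at E13.5 (n = 3). Its shift was not called without BP replicate 2 (adjusted p = 0.0532) or NSC replicate 1 (adjusted p = 0.0572).

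Mef2c, a transcription factor of cortical neurons, was not called at E13.5, with 5.8, 10.6 and 9.22 TPM in NSC, against 22.8, 24.4 and 17.8 TPM in BP (-1.27 ± 0.52, adjusted p = 0.0571). Its groups did not overlap, as for 54.7% of all tested genes. In NSC it was 18.1 ± 11.7 TPM at E14.5 (n = 4), 46.3 ± 24.4 TPM at E15.5 and 112 ± 28.4 TPM at E17.5 (SD, n = 3 each). In BP it was 28.1 ± 8.21 TPM at E14.5 (n = 6), 7.1 ± 2.25 TPM at E15.5 (n = 3) and 7.22 ± 2.7 TPM at E17.5 (n = 4). On group means its order was thus BP above NSC at E13.5 and NSC above BP from E15.5.

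The largest shifts towards NSC were in Cav1, which encodes the membrane protein caveolin (2.56 ± 0.87, adjusted p = 0.0409), the non-coding gene E330013P04Rik (2.20 ± 0.49, adjusted p = 0.00267), the carbonic anhydrase gene Car14 (2.11 ± 0.42, adjusted p = 0.000932), the small heat shock gene Hspb8 (1.998 ± 0.46, adjusted p = 0.00352) and the adhesion molecule gene Mcam (1.89 ± 0.46, adjusted p = 0.00463). At E13.5 Cav1 had 40.8, 23.8 and 21.1 TPM in NSC, against 0.656, 1.96 and 1.62 TPM in BP. Cav1 in BP ranged from 4.14 to 82.9 TPM at E16.5 and from 2.11 to 109 TPM at E17.5, and its shift was not called without any 1 of the 6 E13.5 libraries (adjusted p between 0.0636 and 0.135). Car14 had 75.6, 56.4 and 74.1 TPM in NSC, against 11.45, 9.22 and 11.497 TPM in BP at E13.5, and Mcam had 29.9, 25 and 29.5 TPM in NSC, against 1.33, 1.74 and 2.01 TPM in BP. In these genes the nearest NSC and BP libraries were at least 4-fold apart.

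The same test was read for genes named above. The shift of Tubb3 was -0.997 ± 0.28, adjusted p = 0.0122, that of Pax6 1.24 ± 0.33, adjusted p = 0.0097 and that of Hes1 1.83 ± 0.57, adjusted p = 0.0272, so Pax6 and Hes1 were further apart at E13.5 than over the mean of other days and Tubb3 missed the required size. Without single E13.5 libraries the shift of Hes1 lost the call for BP replicates 1 and 2 and NSC replicates 2 and 3 (adjusted p between 0.0581 and 0.113), and that of Tubb3 gained it for BP replicate 1 and NSC replicates 1 and 2 (-1.04 to -1.10). Eomes (0.41 ± 0.46, adjusted p = 0.635), Neurog2 (0.52 ± 0.32, adjusted p = 0.318) and Ski (-0.01 ± 0.18, adjusted p = 0.988) did not pass. Vcam1 in BP was 0.798 ± 0.351 TPM at E13.5 and 6.44 ± 0.464 TPM at E18.5 (SD, n = 3 each), and its shift was 1.88 ± 0.30, adjusted p = 0.000125. Pax6 in NSC was 161 ± 16 TPM at E13.5 and 49.3 ± 16.9 TPM at E17.5, and in BP 47.5 ± 4.07 TPM at E13.5 (n = 3) and 101 ± 23.7 TPM at E17.5 (n = 4), so its order was the reverse on the later day, when it was called higher in BP (-1.06).

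**Figure D5:**
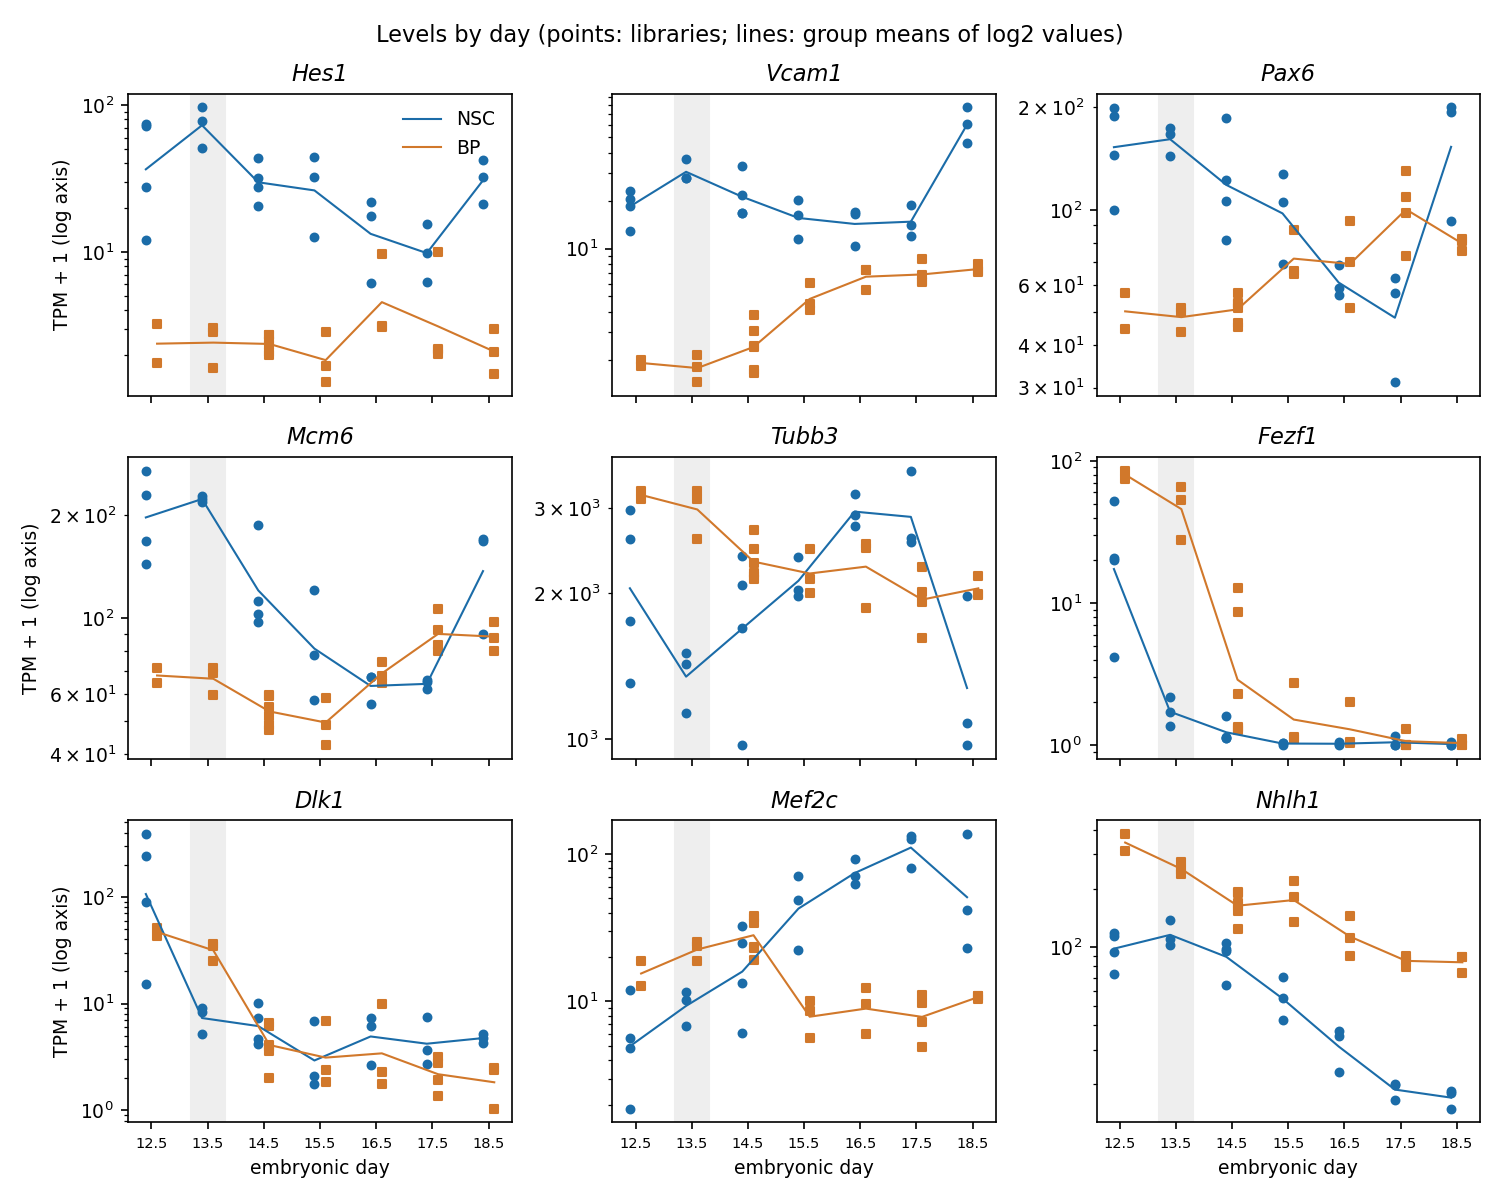
TPM + 1 on a log axis against embryonic day for 9 genes, with 1 point per library for NSC (blue circles) and BP (orange squares), lines through the group means of log2(TPM + 1) and E13.5 shaded. Hes1, Vcam1 and Nhlh1 keep 1 order of group means on all 7 days, and Pax6, Mcm6, Tubb3 and Mef2c cross. Fezf1 is low from E13.5 in NSC and from E15.5 in BP, with BP libraries split at E14.5.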

How the data were processed

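RNA of sorted cells was sequenced as single 50 base reads from TruSeq v2 libraries, per the labels' protocols. That kit does not mark strand, so overlapping sense and antisense genes cannot be told apart. The authors deposited TPM values, 1 per gene and library, for 23078 genes and 63 libraries. Kallisto 0.43.0 and the builds GRCm38.p2 and mm10 are named in the submitters' processing notes. Each column sums to about 1000000 TPM. No counts were used here, so the depth is unknown, neither an interval nor a floor could be given, and errors reflect the scatter of libraries alone.

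Values were analysed as log2(TPM + 1), with a pseudocount of 1 that understates the change of low genes. The filter kept 15231 genes, those that reached 1 TPM in 3 or more libraries. Limma 3.58.1 (R 4.3.3) fitted 1 mean per group to the 63 libraries of all 19 groups, with variances moderated along a trend on mean level, and p-values were Benjamini-Hochberg adjusted over all tested genes. Contrasts were NSC minus BP at E13.5, and that difference minus its mean over the 6 other shared days or over E12.5 and E14.5. The fit was tested on simulated data of the same layout.

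Named are the 10 largest changes in each direction among called genes of at least 10 TPM (5 for day differences), up to 3 called members of smallest adjusted p per list and direction, and a fixed set of genes. Members of lists beyond these were named after their values were seen, and some genes that met the rule are not reported here. The comparison and the 36 gene lists were chosen with earlier results of these data known. Replicate numbers were not used to pair the libraries. Same-numbered NSC and BP libraries deviated from their group means with correlations of -0.472, -0.05 and -0.209. Deviations from a mean of so few libraries are tied to each other, so these values cannot tell whether libraries were paired. Alternatives were pseudocounts of 0.1 and 5, other filters, scalings and library weights, a Y-linked covariate, the 6 libraries alone, a replicate block, and each library left out. Removing mitochondrial genes, and leaving out both replicate 1 libraries, were added after seeing the data.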

Additional observations from a re-analysis of the deposited data

Results flagged for a closer look

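The difference between NSC and BP at E13.5 was tested against the mean of the same difference on the 6 other shared days. In that test 180 genes (1.18% of those tested) were called as shifted towards NSC and 465 (3.05%) as shifted towards BP. Against E12.5 and E14.5 alone, the main fit called 0 genes. Among genes of at least 10 TPM, the largest log2 shifts towards NSC were 2.56 for Cav1, 2.20 for E330013P04Rik, 2.11 for Car14, 2.00 for Hspb8 and 1.89 for Mcam. The largest shifts towards BP were -4.00 for Fezf1, -2.90 for Tmem130, -2.87 for Dlk1, -2.85 for Fam19a2 and -2.78 for Mef2c. Mef2c was not called at E13.5 itself. The shift of Cav1 lost its call when any 1 of the 6 E13.5 libraries was left out. That of Dlk1 lost it without BP replicate 2 or without NSC replicate 1. Groups of 3 libraries were too small to look for single libraries far from the others.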

How the results depend on the processing

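No call among the 150 named results changed direction under the alternatives run, and directions of other genes were not compared. For NSC minus BP at E13.5, 828 genes towards NSC and 566 towards BP were called, and a pseudocount of 5 gave 417 and 261, since it shrinks the change of low genes. Leaving out each library in turn gave 800 to 888 and 449 to 676. A replicate block in the fit of all 63 libraries gave 829 and 565. In the fit of the 6 libraries alone it gave 841 and 596, beside 839 and 595 without the block, but whether the numbers pair the libraries is not known. Against the 6 other days, a pseudocount of 5 gave 74 towards NSC and 195 towards BP in place of 180 and 465. Leaving out each library gave 129 to 184 towards NSC and 257 to 525 towards BP, and the cause was not tested. Against E12.5 and E14.5, library weights, whose estimation stopped before its tolerance was reached, gave 121 towards NSC and 255 towards BP in place of 0 and 0. The other alternatives for that contrast, leaving out each library included, gave 0. Of 2916 alternative values of 150 named results, 82 lost the call, among 27 results, and 8 gained it, for Ccnd1 and the shift of Tubb3. Of the losses, 54 came with libraries left out and 17 with a pseudocount of 5. The unknown depth limits what can be said of genes near 1 TPM, and 3 libraries a group limit the precision of every change.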
